A study of Mus musculus with 8 samples.

Results

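The 10 transcription factor genes described here are Cebpa, Cebpb, Cebpd, Cebpe, Spi1, Gfi1, Irf8, Irf4, Klf4 and Id2, named as a group because their products direct myeloid differentiation. Their DNA methylation was read from the 49554 genes of the RefSeq gene table in GRCm38 (mm10) coordinates. Each gene was divided into its 2 ends (1000 bp outside to 500 bp inside), the rest of the gene, and a flank of 1000 to 2000 bp outside each end. Reads were summed over the CpG positions of each such unit, so a read that covered several positions was counted once at each. A unit was kept where each of the 8 libraries had 20 or more reads, which left 20 of the 50 units of these genes, with at least 1 unit for all 10 genes, against 34580 units of 22484 genes in the whole table. The level of a unit is the percentage of its reads that called a methylated cytosine.

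The libraries came from I1DN leukemic progenitors, a name used as the labels give it, sorted as cKit+/Cd11b- from mice that had received a transplant of these cells. The mice were given AG120 together with AZA (the combination), AG120, AZA, or Vehicle, for 5 days, with 2 libraries in each of the 4 groups. AG120 is ivosidenib, an inhibitor of mutant IDH1, and AZA is azacitidine, an inhibitor of DNA methyltransferases; the I1DN cells are common to all 4 groups, Vehicle included. The assay was RRBS (reduced representation bisulfite sequencing), in which the CpG-rich ends of restriction fragments are sequenced after bisulfite has converted unmethylated cytosines. No source used here ties a library to an animal, so a p-value measures only the spread between these libraries, which may be technical.

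The C/EBP factors are leucine zipper proteins: C/EBPα is needed for granulocyte and monocyte progenitors to form, C/EBPβ for granulocyte production under stress, and C/EBPε for the late steps of neutrophil maturation. PU.1, the product of Spi1, opens macrophage and B cell programmes, IRF8 favours monocytes and dendritic cells over neutrophils, and IRF4 acts beside it in dendritic and lymphoid cells. GFI1 is a repressor that favours neutrophils, KLF4 acts in monocyte formation, and ID2 blocks E proteins by binding them without touching DNA. Promoters that lie in CpG islands are usually free of methylation whether or not the gene is used, while gene bodies are usually methylated.

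The 4 promoter windows with the most CG dinucleotides read, 6 or more each, are shown here because the levels below rest on such sites. Each runs from 250 bases before to 50 bases after a RefSeq start on mm10, written 5′ to 3′ on the gene's strand. Capitals mark the CG dinucleotides that had 10 or more reads in at least 3 libraries.
Cebpb, chr2:167688665-167688964, plus strand: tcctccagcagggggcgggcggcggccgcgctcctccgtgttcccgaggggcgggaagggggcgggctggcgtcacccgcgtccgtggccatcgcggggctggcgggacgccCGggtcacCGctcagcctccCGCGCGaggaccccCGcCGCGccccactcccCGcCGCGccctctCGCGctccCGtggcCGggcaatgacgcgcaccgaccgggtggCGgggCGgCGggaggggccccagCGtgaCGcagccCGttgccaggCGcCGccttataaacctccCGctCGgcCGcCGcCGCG
Irf4, chr13:30748983-30749282, plus strand: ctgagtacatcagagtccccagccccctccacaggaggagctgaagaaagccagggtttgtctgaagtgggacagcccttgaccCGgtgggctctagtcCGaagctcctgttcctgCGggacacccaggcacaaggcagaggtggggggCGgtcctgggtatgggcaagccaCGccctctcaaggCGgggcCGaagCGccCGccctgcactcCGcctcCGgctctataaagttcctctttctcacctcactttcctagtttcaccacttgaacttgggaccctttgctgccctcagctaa
Id2, chr12:25096043-25096342, minus strand: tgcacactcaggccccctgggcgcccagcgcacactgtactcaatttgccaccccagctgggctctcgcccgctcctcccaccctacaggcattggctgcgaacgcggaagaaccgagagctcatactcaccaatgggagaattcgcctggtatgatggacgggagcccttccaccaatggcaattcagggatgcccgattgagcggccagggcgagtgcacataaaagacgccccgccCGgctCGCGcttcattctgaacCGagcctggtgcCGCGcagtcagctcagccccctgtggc
Gfi1, internal start, chr5:107724294-107724593, minus strand: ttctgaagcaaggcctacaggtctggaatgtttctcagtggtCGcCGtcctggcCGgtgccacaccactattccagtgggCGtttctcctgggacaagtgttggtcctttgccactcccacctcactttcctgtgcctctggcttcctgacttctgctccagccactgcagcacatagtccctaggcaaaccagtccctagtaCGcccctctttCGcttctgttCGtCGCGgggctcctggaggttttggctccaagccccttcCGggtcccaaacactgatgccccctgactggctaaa

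The CG dinucleotides of these windows were low in most libraries. In the Cebpb window, which has 50 CG dinucleotides and 29 in capitals, the 8 libraries lay between 0 and 1.78% over 29607 reads. The Irf4 window holds 11 CG dinucleotides, all in capitals, and 1 of its 3240 reads was methylated, with none of those reads in the library of replicate 2 of the combination. In the Id2 window 6 of 21 CG dinucleotides are in capitals, and replicate 2 of Vehicle stood at 14.0% while the other 7 libraries lay at 0.0808% or lower, with between 5 and 1603 reads per library and 20 or more in 6 of the 8. The internal Gfi1 window, where all 10 CG dinucleotides are in capitals, had 80 methylated reads of 2559 and stood at 28.6 and 0% in the combination, 0 and 0.762% in AG120, 2 and 2.15% in AZA, and 0 and 10.5% in Vehicle, with between 15 and 787 reads per library. RefSeq promoter windows were found for 7 of the 10 genes, 9 windows in all. The GC box GGGCGG, searched on both strands, was in 5 of the 9 windows and in 35.7% of 32851 RefSeq promoters of the same length. The C/EBP-type motif TTGCNNAA was in 1 of the 9 windows, that of the outer Gfi1 start, and in 10.8% of all promoters. The PU.1-type GAGGAAGT and an IRF-type element made of GAAA, any 2 bases and GAAA were in none of the 9 windows, against 3.20% and 3.44% of all promoters.

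Total CpG calls per library ran between 90373925 and 130796962. The depth of gene starts moved with the groups. The median start-site end of the 9863 kept over all genes had 1699 and 1707 reads in the combination, 2285 and 2236 in AG120, 3255 and 3443 in AZA, and 3466 and 4007 in Vehicle. The share of those ends without a single methylated read was 33.3 and 31.1% in the combination, 24.8 and 23.4% in AG120, 17.6 and 15.0% in AZA, and 12.2 and 10.6% in Vehicle. These values stand beside every low level given below, and their part in the results was not tested. Intervals and upper limits given here cover counting error only, since RRBS reads copied by PCR are not independent molecules. Counts from several positions of 1 read are not independent either. Where a read covers several positions, the molecules are fewer than the counts given, and the limits are too narrow. An upper limit for a level of 0 is that of 3 counts of the reads. The sort markers could not be checked as expression: the Kit start-site end lay between 0.137 and 19.4% over the 8 libraries, and no gene end of the 3 myeloid markers Itgam, Csf1r and Csf3r was measured. The gene ends measured for the other marker lists were 3 of 3 progenitor, 3 of 7 lymphoid, 1 of 4 erythroid and megakaryocytic and 1 of 4 stromal and endothelial genes. For the combination against Vehicle, 1 of the 3 progenitor ends and none of the other marker ends had an unadjusted p under 0.05 by the edgeR quasi-likelihood test described below, against 1007 of the 13661 gene ends of all genes chosen the same way.

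**Figure D1:**
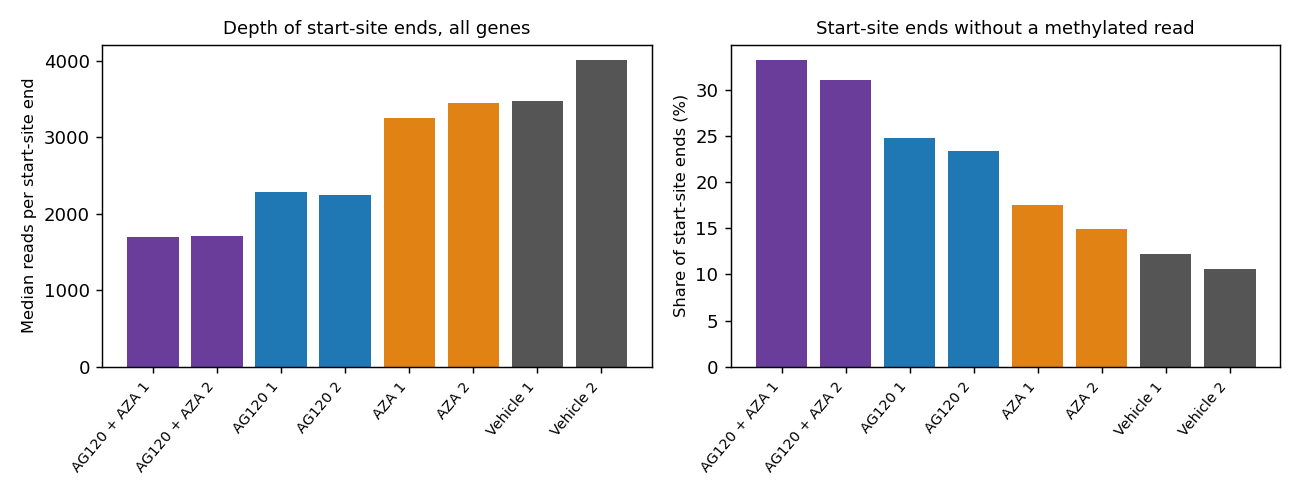
Left, median number of reads per start-site end (9863 ends of all genes) in each library; right, percentage of those ends with no methylated read. Bars are single libraries: the combination has the fewest reads (1699 and 1707) and the most ends without a methylated read (33.3 and 31.1%), and Vehicle the reverse (3466 and 4007 reads, 12.2 and 10.6%).

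The factors ranged between genes that were nearly unmethylated in every measured unit and genes methylated inside. The measured units of Cebpa, Cebpb and Cebpd lay at 12.5% or lower in all 8 libraries. Irf8 was highly methylated inside, while its start-site end lay at 3.51% or lower in 6 libraries and at 11.5 and 45.9% in replicate 2 of the combination and replicate 2 of AG120. The insides of Spi1, Irf4 and Gfi1 scattered widely among libraries, and of Cebpe only 1 end, whose direction is not given, was measured. Over all genes the median start-site end stood at 2.01%, with 75.9% of 9863 ends under 10%, and the median rest of a gene at 61.6%, with 11.8% of 15863 under 10%. The mean level of the rest of the gene placed Cebpd (0.880%) at percentile 1.66 of all genes, Cebpb (1.04%) at 1.97, Cebpa (1.81%) at 3.73 and Klf4 (13.0%) at 14.2. Gfi1 (34.4%), Irf4 (35.5%) and Spi1 (47.5%) lay at percentiles 29.8, 30.7 and 39.3, and Irf8 (83.0%) at 72.5. In 3 of the 6 factors with both units measured, Irf8, Gfi1 and Klf4, the rest of the gene was above the start-site end in all 8 libraries, against 63.9% of 6440 genes.

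**Figure D2:**
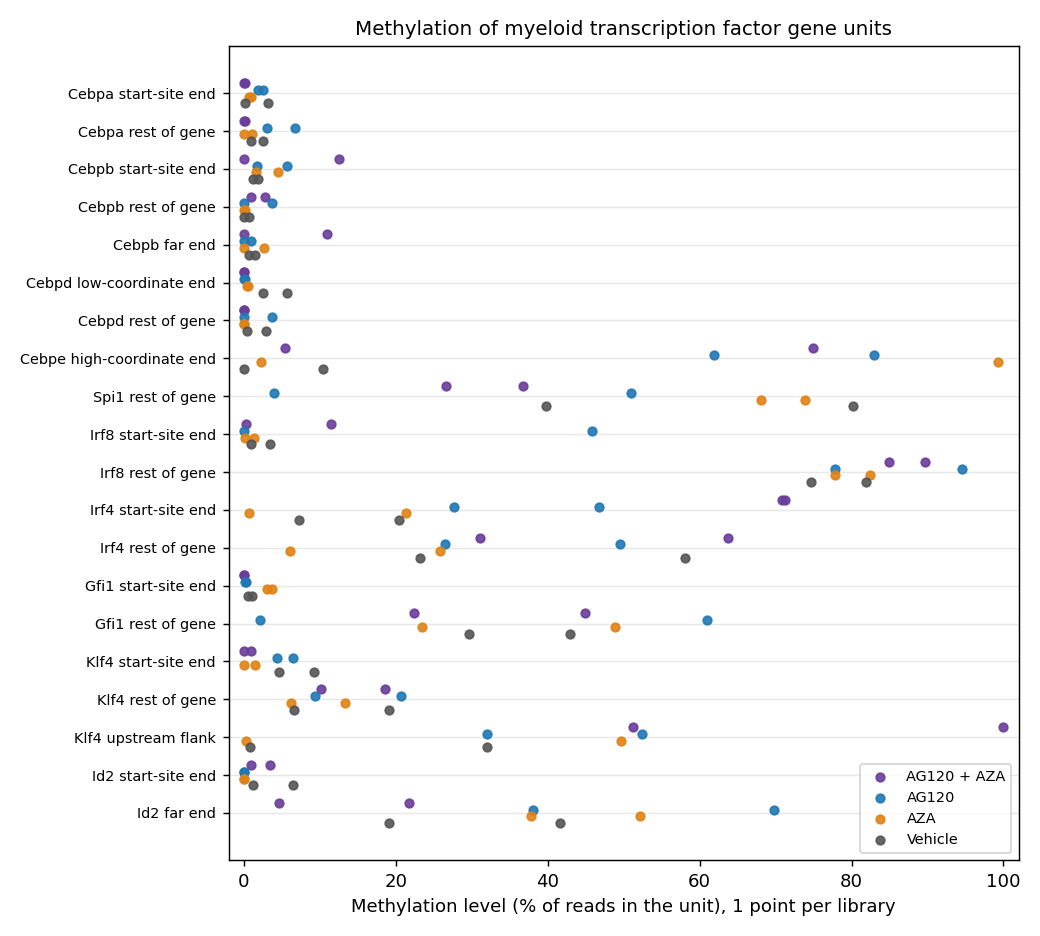
Methylation level (percentage of reads) of the 20 kept units of the 10 factors, 1 point per library and 2 libraries per group. The C/EBP units of Cebpa, Cebpb and Cebpd sit at the left edge, at 12.5% or lower, the rest of Irf8 sits between 74.6 and 94.6%, and Cebpe, Spi1, Irf4 and the Klf4 upstream flank spread widely, also within groups.

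Among the C/EBP genes, the start-site end of Cebpa (chr7:35118293-35119792) had a level of 0.0303 and 0.145% in the combination, 2.59 and 1.91% in AG120, 0.624 and 0.988% in AZA, and 0.191 and 3.15% in Vehicle. Both combination libraries lay below all the others, and the 2 Vehicle libraries spanned the AG120 and AZA values. The rest of Cebpa stood at 0.152 and 0% in the combination (0 of 1291 reads, which allows up to 0.232%), 3.04 and 6.78% in AG120, 0.0667 and 1.05% in AZA, and 0.901 and 2.47% in Vehicle. AG120 was the highest group in this unit and did not overlap the other 3. All methylated reads of each AG120 library came from 1 position here, of 36 and 31 positions read. At +1353 bp from the gene start replicate 2 of AG120 stood at 48.8% and replicate 1 at 0% (137 reads), so that position was not shared. In the start-site end, 96 and 98.9% of the AG120 methylated reads came from 2 positions per library. The part of differing positions in the order of the groups was not tested.

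The start-site end of Cebpb (chr2:167687915-167689414), which contains the window printed above, had 0.0588 and 12.5% in the combination, 1.68 and 5.68% in AG120, 4.51 and 1.61% in AZA, and 1.23 and 1.88% in Vehicle. The combination held both the lowest and the highest library, and in the high one 99.3% of the 142 methylated reads came from 2 of 54 positions. The rest of Cebpb lay between 0 and 3.76%. Its far end, which overlaps the long non-coding RNA gene A530013C23Rik, lay between 0 and 10.9%, with the highest value in replicate 1 of the combination, where all 151 methylated reads came from 1 position.

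Cebpd had its methylated reads mostly in Vehicle. The low-coordinate end (chr16:15886286-15887785, the direction of the gene not being given in the tables used) stood at 0 and 0.0549% in the combination, 0.0323 and 0.145% in AG120, 0.378 and 0.607% in AZA, and 2.59 and 5.64% in Vehicle. Both Vehicle libraries lay above the 6 treated ones, and the 4 libraries with AG120 lay below the 4 without it. The 92 methylated reads of replicate 1 of Vehicle came from 1 of 68 positions, and the 239 of replicate 2 from 5 of 118 positions. That 1 position, chr16:15887424, had 1 and 0 reads in the combination and 2 in replicate 2 of Vehicle. It stood at 0% in AG120 (133 and 118 reads) and in AZA (45 and 92 reads). In the rest of Cebpd, 5 of the 8 libraries had no methylated read and the highest was replicate 1 of AG120 at 3.72%.

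**Figure D3:**
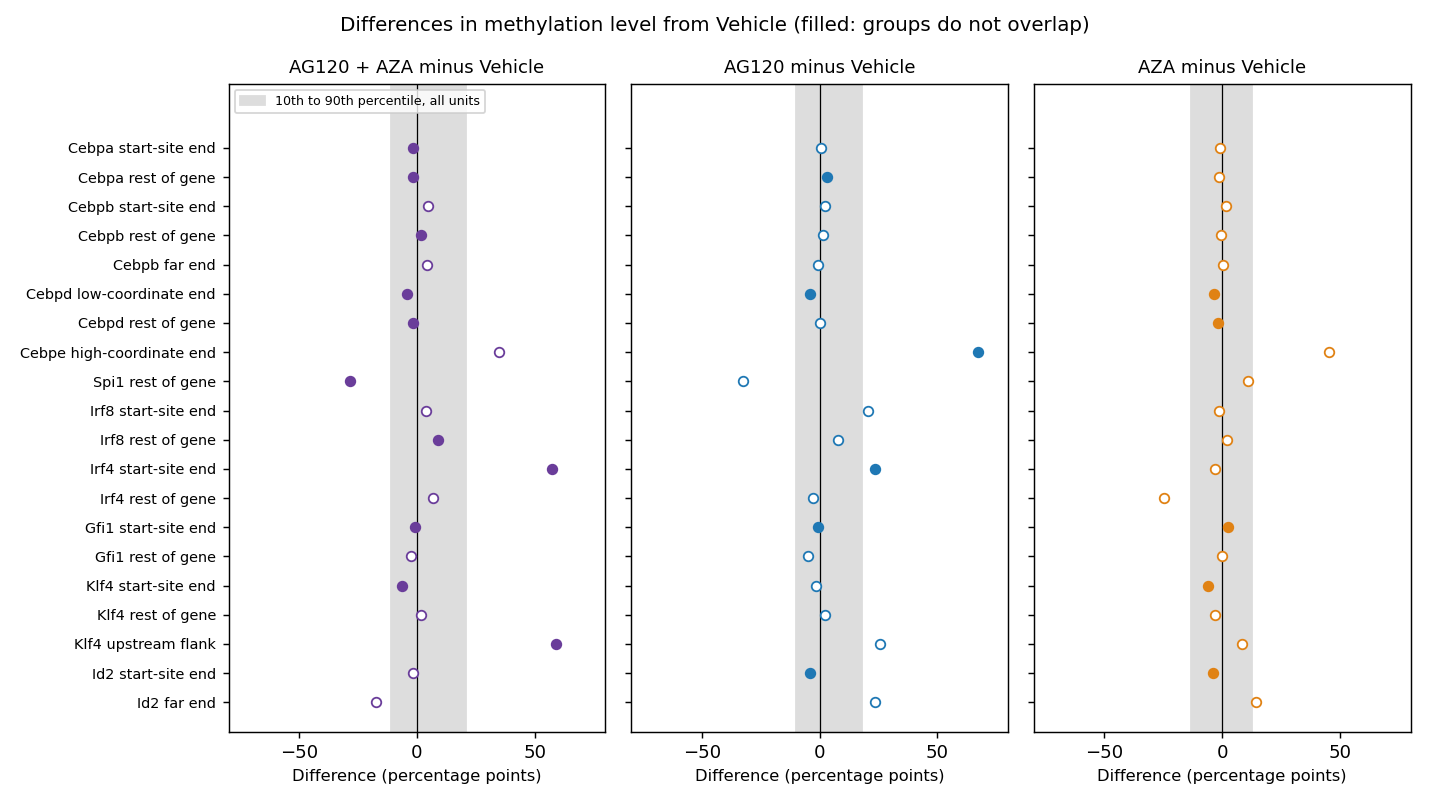
Difference in methylation level from Vehicle, in percentage points, for the 20 units in the combination, AG120 and AZA; points are differences of group means (n = 2), filled where the 2 groups do not overlap, and the grey band runs between the 10th and 90th percentiles of all 34580 units. Most C/EBP units lie near 0, while the Irf4 start-site end (57.2 points) and the Klf4 upstream flank (59.2 points) lie far right in the combination and the Cebpe end (67.2 points) in AG120.

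Cebpe had 1 measured unit, its high-coordinate end (chr14:54711675-54713174). The level was 74.9 and 5.42% in the combination, 61.9 and 83.0% in AG120, 2.26 and 99.2% in AZA, and 10.5 and 0% in Vehicle, where the 0% rests on 30 reads and allows up to 10%. Libraries of 1 group stood at opposite ends of the scale in the combination and in AZA. Between 7 and 28 of the unit's 56 positions had a read in a library, and none was read in all 8. For Spi1 only the rest of the gene (chr2:91082874-91115259) was measured, at 36.8 and 26.6% in the combination, 51.0 and 3.99% in AG120, 73.8 and 68.1% in AZA, and 80.2 and 39.8% in Vehicle. Both combination libraries lay below both AZA and both Vehicle libraries, and AG120 spanned the combination. A library read between 9 and 33 of the 74 Spi1 positions, and none was read in all 8. The order of the groups thus compares different positions, whose part in it was not tested.

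Irf8 showed the sharpest boundary inside a gene. Its start-site end (chr8:120735358-120736857) stood at 0.279 and 11.5% in the combination, 0.0232 and 45.9% in AG120, 1.38 and 0.157% in AZA, and 0.972 and 3.51% in Vehicle. Replicate 2 of AG120 stood apart from the other 7 libraries, with its 945 methylated reads at 6 of 31 positions. The rest of Irf8 (chr8:120736858-120756194) stood at 89.7 and 84.9% in the combination, 94.6 and 77.8% in AG120, 77.8 and 82.4% in AZA, and 74.6 and 81.9% in Vehicle. The combination libraries lay above both AZA and both Vehicle libraries, and AG120 spanned the combination. At the 12 positions at +3397 to +3568 bp from the gene start this order did not appear. They stood at 93.7 and 91.9% in the combination, 87.2 and 97.3% in AZA, and 100 and 96.8% in Vehicle.

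Within Irf8 the position map showed methylated and unmethylated stretches in turn. A stretch here is a run of positions with 10 or more reads in at least 5 libraries and gaps of at most 200 bp, a definition set after the values were seen. Stretches at +3397 to +3568 bp from the gene start (12 positions) and at +12752 to +12801 bp (6 positions) lay between 87.2 and 100% and between 99.1 and 100% in all 8 libraries. Those at +18105 to +18155 bp and +18756 to +18828 bp lay between 76.4 and 100% and between 78.03 and 100%. Between them, the stretch at +15907 to +15976 bp (6 positions) lay between 0 and 12.1% in 7 libraries, and that at +9016 to +9098 bp (2 positions) was at 0 in 6 of 7 libraries and at 46.3% in replicate 2 of AZA. The 13 positions at -351 to -222 bp, before the start, lay between 0 and 20.1%. Some stretches differed between libraries. The single positions at +6680 and +14417 bp each stood at 100% in 3 libraries and at 0 in 2. The stretch at +432 to +552 bp stood at 47.1% in replicate 1 of AG120 and at 0.212% or lower in the other libraries. All 11 positions of the 10 genes that had 10 or more reads in every library were in the rest of Irf8, and in each of them at least 6 of the 8 libraries stood at 100%.

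**Figure D4:**
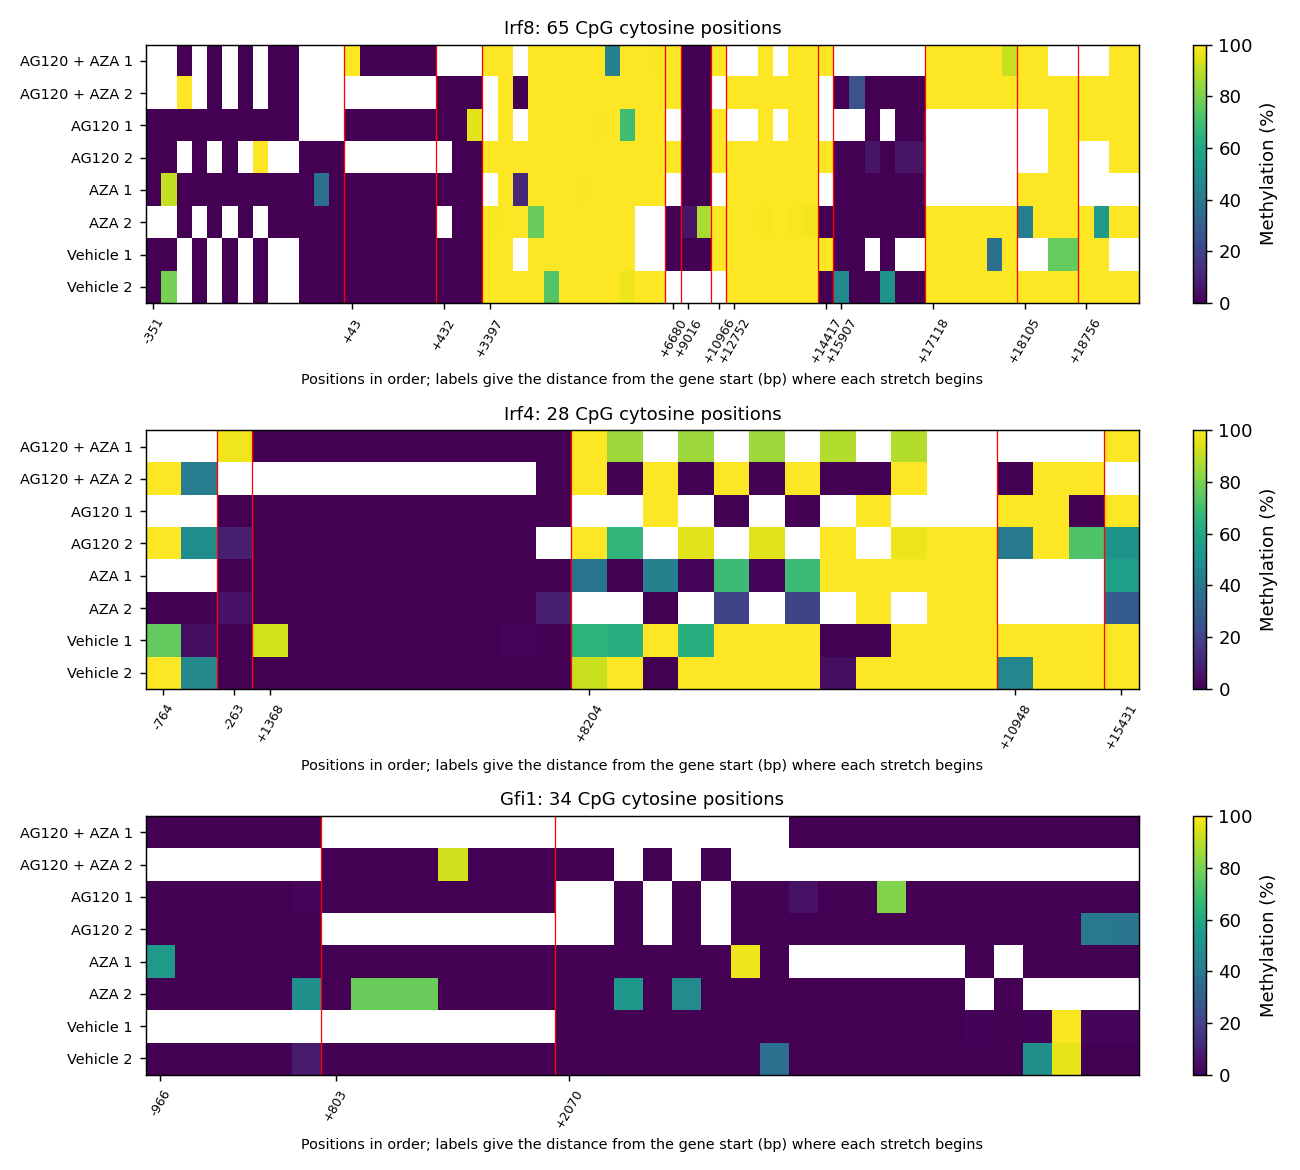
Methylation level of single CpG positions (columns, in order, labels in bp from the gene start at the first position of each stretch) in Irf8, Irf4 and Gfi1, with libraries as rows, white for fewer than 10 reads and red lines between stretches. In Irf8 the stretches at +3397 and +12752 bp are methylated in all 8 libraries (87.2 to 100% and 99.1 to 100%) and the one at +15907 bp is at 0 to 12.1%; in Irf4 the stretch at +1368 bp is at 0 to 9.04% and that at +8204 bp at 41.1 to 90.5%.

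The start-site end of Irf4 (chr13:30748233-30749732) stood at 70.8 and 71.25% in the combination, 27.7 and 46.7% in AG120, 0.714 and 21.3% in AZA, and 7.32 and 20.4% in Vehicle. All 4 libraries with AG120 lay above all 4 without it, and the combination lay above AG120 alone. The libraries did not read the same positions here: replicate 1 of the combination read 6 of the 30 positions and replicate 2 read 2, against 26 and 28 in AG120, 24 and 26 in AZA, and 14 and 15 in Vehicle. The unit was therefore divided at -300 bp, a boundary set after the values were seen.

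The 23 Irf4 positions nearer the start, at -263 to -31 bp, had 91.9% in replicate 1 of the combination (248 of 270 reads), where the single position at -263 bp carried all the methylated reads (98.0% of its own reads), and no read in replicate 2. The same positions stood at 0 and 0.472% in AG120, 0 and 0.165% in AZA, and 0.102 and 0% in Vehicle. The 7 farther positions, at -996 to -704 bp, stood at 9.68 and 71.25% in the combination, 50.2 and 63.6% in AG120, 100% (2 reads) and 63.3% in AZA, and 39.9 and 73.5% in Vehicle. On neither side did the order of the whole unit appear: the farther positions overlapped between every pair of groups, and the nearer ones could be compared with the combination in 1 library alone.

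The rest of Irf4 (chr13:30749733-30766481) stood at 31.1 and 63.7% in the combination, 26.5 and 49.5% in AG120, 25.9 and 6.03% in AZA, and 58.0 and 23.2% in Vehicle. AZA lay below both the combination and AG120 without overlap and overlapped Vehicle. Its 9 positions at +1368 to +1642 bp lay between 0 and 9.04% in all 8 libraries, and its 12 positions at +8204 to +8314 bp between 41.1 and 90.5%. At those 12 positions AZA (70.0 and 41.1%) overlapped both the combination (88.7 and 56.1%) and AG120 (50.5 and 90.5%).

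Gfi1 was low at its start and mixed inside. Its start-site end (chr5:107725306-107726805) had no methylated read in either combination library, of 1323 and 450 reads, which allows up to 0.227 and 0.667%. The level was 0.0963 and 0.315% in AG120, 3.65 and 3.07% in AZA, and 0.565 and 1.13% in Vehicle. The 4 groups did not overlap one another, in the order combination, AG120, Vehicle, AZA. The 84 and 61 methylated reads of the 2 AZA libraries came from 3 and 1 positions. At -966 bp from the gene start replicates 1 and 2 of AZA stood at 54.1 and 0%, and at -942 bp at 0 and 50%. Both positions had 15 and 0 reads in the combination and 0 and 113 in Vehicle. The part of differing positions in the order of the groups was not tested. The rest of Gfi1 stood at 44.9 and 22.4% in the combination, 2.14 and 61.0% in AG120, 48.9 and 23.4% in AZA, and 29.6 and 43.0% in Vehicle, with AG120 spanning all other libraries. Its best covered stretch, 20 positions at +2070 to +2280 bp, lay between 0.490 and 12.1% in all 8 libraries.

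The start-site end of Klf4 (chr4:55531976-55533475), which overlaps the long non-coding RNA gene Gm12506, stood at 0.905 and 0% in the combination (0 of 596 reads, up to 0.503%), 6.45 and 4.40% in AG120, 1.44 and 0.0721% in AZA, and 4.59 and 9.25% in Vehicle. The 4 libraries with AZA lay below the 4 without it. A library read between 19 and 139 of the unit's 202 positions. At the 12 positions at -709 to -564 bp from the gene start this order did not appear. They stood at 0 and 0% in the combination, 6.74 and 0% in AG120, 0.463 and 0.416% in AZA, and 0.337 and 0.621% in Vehicle. The rest of Klf4 lay between 6.16 and 20.6%, and its groups overlapped in every pair. The upstream flank of Klf4 (chr4:55533476-55534475), also inside Gm12506, stood at 100 and 51.3% in the combination, 52.5 and 32.0% in AG120, 49.6 and 0.297% in AZA, and 0.787 and 32.1% in Vehicle. It had the widest range of the 20 units. Replicate 1 of the combination read 1 position there, with 200 reads, and replicate 2 read another 2 positions.

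Across all 34442 units that do not overlap this flank, those whose levels were most like it over the 8 libraries were the start-site end of Slc17a6 (Pearson r of 0.967), the rest of Bfsp1 (0.961) and the rest of Ptbp1 (0.958), and 43 units had an r over 0.9. These correlations are a description over 8 libraries whose depth moves with the groups.

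Id2 had 2 measured units. Its start-site end (chr12:25095593-25097092), which contains the window printed above, stood at 0.895 and 3.47% in the combination, 0 and 0% in AG120, 0 and 0.0376% in AZA, and 1.26 and 6.51% in Vehicle. The single-drug libraries lay below both the combination and Vehicle. The 0 values of AG120 rest on 1371 and 374 reads and allow up to 0.219 and 0.802%, and that of AZA rests on 3061 reads and allows up to 0.0980%. The combination values rest on 7 methylated reads of 782, at 7 positions, and 5 of 144, at 5 positions. As counts per position, these may come from fewer molecules. All 185 methylated reads of replicate 2 of Vehicle came from 2 positions. The far end of Id2 (chr12:25092799-25094298) stood at 4.67 and 21.7% in the combination, 38.0 and 69.8% in AG120, 52.1 and 37.8% in AZA, and 41.7 and 19.1% in Vehicle. The combination lay below both single drugs and overlapped Vehicle. Its replicate 1 read only 3 of the unit's 29 positions, at +3134 to +3177 bp. At those 3 positions levels ran between 0 and 10% in the combination, 0 and 28.7% in AG120, and 0 and 100% in replicate 2 of AZA. The part of differing positions in this order was not tested.

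The groups were then compared with edgeR's quasi-likelihood test on methylated and unmethylated reads, fitted over all 34580 units and 8 libraries, with Benjamini-Hochberg adjustment over all units. None of the 20 units of these factors passed an adjusted p of 0.05 in any of the 8 contrasts, and neither did any other unit (0% of 34580). The smallest adjusted p among the factors was 0.761, for Cebpd. In the same contrasts limma called no unit of the factors either, while edgeR's likelihood ratio test and DESeq2 called between 0 and 2 of the 20 per contrast. The 3 comparisons with Vehicle share the Vehicle libraries.

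For the combination against Vehicle, 2 of the 20 units had an unadjusted edgeR p under 0.05, against 5.53% of all units. The level did not overlap between the groups in 7 units where the combination was lower, against 19.1% of all units, and in 4 where it was higher, against 18% of all units. The median difference over the 20 units was 0.340 percentage points, against 0.0881 over all units. Cebpd's low-coordinate end averaged 0.0274 ± 0.0388% in the combination and 4.11 ± 2.15% in Vehicle (SD, n = 2 each), with an unadjusted p of 0.00573 and an adjusted p of 0.841 by edgeR's quasi-likelihood test. Gfi1's start-site end averaged 0% and 0.848 ± 0.401% (unadjusted p of 0.0392, adjusted p of 0.887, same edgeR test). The edgeR likelihood ratio test gave Cebpd an adjusted p of 0.0165 and DESeq2 one of 0.0108, so its call rests on the choice of tool. The position with all methylated reads of replicate 1 of Vehicle had 1 and 0 reads in the combination. The part of differing positions in this difference was not tested. The wide difference of the Irf4 start-site end, 71.0 ± 0.319% in the combination and 13.9 ± 9.24% in Vehicle, had an unadjusted edgeR p of 0.119, and that of the Klf4 upstream flank, 75.6 ± 34.4% and 16.4 ± 22.1%, one of 0.216.

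For AG120 against Vehicle, 2 of the 20 units had an unadjusted p under 0.05, against 3.66% of all units. In 3 units AG120 was lower without overlap (16.1% of all units) and in 3 higher (17.8% of all units), with a median difference of 1.06 points against 0.206 over all units. Cebpd averaged 0.0885 ± 0.0794% in AG120 and 4.11 ± 2.15% in Vehicle (edgeR unadjusted p of 0.0142, adjusted p of 1; DESeq2 adjusted p of 0.0385). Id2's start-site end averaged 0% in AG120 and 3.89 ± 3.71% in Vehicle (edgeR unadjusted p of 0.0271, adjusted p of 1). Cebpe showed the widest difference, 72.4 ± 14.9% in AG120 and 5.23 ± 7.40% in Vehicle, with an unadjusted edgeR p of 0.187.

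For AZA against Vehicle, 1 of the 20 units had an unadjusted p under 0.05, against 2.54% of all units. AZA was lower without overlap in 4 units (18.3% of all units) and higher in 1 (14.5% of all units), and the median difference was -0.581 points against -0.0957 over all units. That 1 unit was again the Id2 start-site end, at 0.0188 ± 0.0266% in AZA and 3.89 ± 3.71% in Vehicle (edgeR unadjusted p of 0.0229, adjusted p of 1). The unit that was higher was the Gfi1 start-site end, at 3.36 ± 0.410% in AZA and 0.848 ± 0.401% in Vehicle.

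Set against AZA alone, the combination had 2 units with an unadjusted p under 0.05 (5.18% of all units), 5 lower without overlap (15.9% of all units) and 6 higher (18.4% of all units). Gfi1's start-site end averaged 0% in the combination and 3.36 ± 0.410% in AZA (edgeR unadjusted p of 0.0121, adjusted p of 0.923). Both other count tools called it, edgeR's likelihood ratio test with an adjusted p of 0.0200 and DESeq2 with 0.0305. The positions at -966 and -942 bp, which held most AZA methylated reads, had 15 and 0 reads in the combination. Id2's start-site end averaged 2.18 ± 1.82% in the combination and 0.0188 ± 0.0266% in AZA (edgeR unadjusted p of 0.0342, adjusted p of 0.931). The median difference was 0.912 points, against 0.280 over all units.

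Set against AG120 alone, the combination had 3 units with an unadjusted p under 0.05 (4.47% of all units), 5 lower without overlap (15.9% of all units) and 2 higher (14.4% of all units). The 3 were the start-site end of Cebpa, at 0.0875 ± 0.0809% in the combination and 2.25 ± 0.480% in AG120, the rest of Cebpa, at 0.0760 ± 0.107% and 4.91 ± 2.65%, and the start-site end of Id2, at 2.18 ± 1.82% and 0%. Their unadjusted p-values by edgeR's quasi-likelihood test were 0.0119, 0.0264 and 0.0389, and all 3 had an adjusted p of 1. In both Cebpa units nearly all AG120 methylated reads came from 1 or 2 positions per library, as given above. The part of differing positions in these differences was not tested. The median difference over the 20 units was -0.0328 points, against 0 over all units.

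Averaging over the other drug, the 4 libraries with AG120 were set against the 4 without it. Here 2 of the 20 units had an unadjusted p under 0.05 (5.33% of all units), 2 were lower without overlap (2.04% of all units) and 1 was higher (2.54% of all units). Cebpd's low-coordinate end averaged 0.0580 ± 0.0620% with AG120 and 2.30 ± 2.43% without (SD, n = 4 each), with an unadjusted edgeR p of 0.00522 and an adjusted p of 0.761. Gfi1's start-site end averaged 0.103 ± 0.149% with AG120 and 2.11 ± 1.49% without (edgeR unadjusted p of 0.0129, adjusted p of 0.820). The unit that was higher was the Irf4 start-site end, at 54.1 ± 21.0% with AG120 and 12.4 ± 10.1% without (edgeR unadjusted p of 0.0645, adjusted p of 0.963), whose libraries read different positions as described above. For Cebpd and Gfi1 the edgeR likelihood ratio test gave adjusted p-values of 0.0110 and 0.0204, and DESeq2 of 0.00536 and 0.0270. In both units, positions with most methylated reads of some library without AG120 had few or no reads in the combination, as given above.

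The 4 libraries with AZA against the 4 without gave 2 units with an unadjusted p under 0.05 (3.69% of all units), 1 lower without overlap (1.51% of all units) and 0 higher (0.966% of all units). Klf4's start-site end was the one without overlap, at 0.604 ± 0.692% with AZA and 6.17 ± 2.25% without (SD, n = 4 each; edgeR unadjusted p of 0.0239, adjusted p of 1; DESeq2 adjusted p of 0.0492). Its libraries read different positions, and at -709 to -564 bp those with and without AZA overlapped, as given above. The other unit was the rest of Cebpa, whose groups overlapped (edgeR unadjusted p of 0.0250, adjusted p of 1). For the interaction of the 2 drugs, 1 unit had an unadjusted p under 0.05 (3.21% of all units). This was the Id2 start-site end, where the effect of AG120 with AZA minus that without AZA was 6.05 points (edgeR unadjusted p of 0.00632, adjusted p of 1).

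Of a list of 46 further myeloid and haematopoietic transcription factors, 30 had a measured gene end. Their mean level lay between 2.64 and 5.96% over the 8 libraries, and that of the 9 gene ends of the 10 factors chosen the same way between 1.66 and 20.9%. In the combination against Vehicle 19 of the 30 were lower and 10 higher, against 7516 and 5886 of the 13661 gene ends of all genes chosen the same way, and the median difference was -0.249 points against -0.187 over those ends. Without overlap, 12 were lower and 3 higher, against 25.8% and 11.4% of those ends. Unadjusted p-values under 0.05 by edgeR's quasi-likelihood test numbered 2 lower and 0 higher among the 30, against 870 and 137 of the 13661. The list's smallest p-values belonged to Irf5, which drives inflammatory cytokine genes in macrophages, at 0.0423 ± 0.0598% in the combination and 4.19 ± 2.13% in Vehicle (edgeR unadjusted p of 0.0182, adjusted p of 0.844). Zeb2, a zinc finger repressor used in myeloid and dendritic cells, had no methylated read in the combination, which over both libraries allows up to 0.153%, and 7.98 ± 6.95% in Vehicle (edgeR unadjusted p of 0.0247, adjusted p of 0.844). Fos, an AP-1 subunit, likewise had none in the combination, up to 0.0706%, and 0.393 ± 0.0570% in Vehicle (edgeR unadjusted p of 0.0591, adjusted p of 0.913).

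Of 30 myeloid effector genes that such factors are known to drive, 5 had a measured gene end, and 2 were lower and 3 higher in the combination than in Vehicle. None had an unadjusted p under 0.05 by edgeR's quasi-likelihood test. Il6ra, the receptor of interleukin 6, averaged 19.7 ± 23.7% in the combination and 2.41 ± 1.90% in Vehicle, Tlr2, a receptor for bacterial lipoproteins, 0.100 ± 0.142% and 0%, and Csf2rb, the shared β chain of the GM-CSF receptor, 0% (up to 0.893%) and 5.62 ± 6.90%.

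Single positions were mostly all or nothing. Of 5594 values of a position in a library with 10 or more reads in these genes, 77.2% were at 0 and 14.9% at 100%, 92.1% in all, against 89.6% over all positions of the table. By gene the share at exactly 0 or 100% ran between 78.8% in Irf4 and 97.1% in Cebpb. Of the 2708 positions in these genes that had a read in some library, 44 (1.62%) had one in all 8, against 3.44% over the whole table, so the levels of a unit in different libraries were largely drawn from different positions.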

How the data were processed

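RRBS was done on genomic DNA of 8 libraries, 2 in each of 4 groups. Per the file headers, the deposited values are the authors' raw counts of methylated and unmethylated reads at each CpG cytosine and library, with no normalization. Per the submitters' processing notes, the authors used the mm10 build, Bismark 0.22.3, Trim Galore 0.4.4, edgeR 3.32, R 4.0.2, SAMtools 1.4.1 and bcl2fastq 2.17.1.14, with no role or order given. No source used here states removal of duplicates, the conversion rate or spike-in results.

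Of 4006353 positions, 4003423 on autosomes and X were used, and 0 columns were left out. Positions were matched to RefSeq genes; of 454235 in RefSeq promoter windows, 99.3% lay at a CG, against 55.9 and 56.0% when shifted by 1 base. The start-site end was named from the RefSeq promoter table, which has no entry for Cebpd, Cebpe and Spi1. Neither exons nor introns were annotated, since no mm10 exon table was used here. The sequences are from RefSeq.

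The main test was edgeR 4.0.16 (quasi-likelihood, robust, R 4.3.3), with 1 term per library and 1 methylation term per group, checked on simulated data. Alternatives were read minimums of 10 and 50, at least 3 positions per unit, positions read in all libraries, edgeR's likelihood ratio test, limma 3.58.1 (pseudocount of 2), DESeq2 1.42.0, a replicate block and leaving out each library. Named were all 10 factors with every kept unit, the 3 genes of each further list with the smallest p for the combination against Vehicle, and the 3 units most like the widest-ranging one. The genes, lists and rules were chosen with earlier results of these data known.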

Additional observations from a re-analysis of the deposited data

Results flagged for a closer look

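At the Gfi1 start-site end the AZA difference had opposite signs without and with the other drug: AZA minus Vehicle was 2.52 percentage points, and the combination minus AG120 was -0.206 points. The second value rests on 0 of 1773 reads in the combination and 3 of 1672 in AG120 (edgeR quasi-likelihood unadjusted p of 0.136), and the upper limits of the combination, 0.227 and 0.667%, reach past the AG120 levels of 0.0963 and 0.315%, so that its sign is not resolved at this depth. The interaction had an unadjusted p of 0.0812 by edgeR's quasi-likelihood test. Replicate 1 of Vehicle and replicate 2 of the combination had no read at -966 or -942 bp, where most AZA methylated reads lay.

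The Id2 start-site end gave the same kind of pattern for both drugs. AG120 minus Vehicle was -3.89 points and the combination minus AZA was 2.16 points; AZA minus Vehicle was -3.87 points and the combination minus AG120 was 2.18 points. The interaction had an unadjusted p of 0.00632 and an adjusted p of 1 by edgeR's quasi-likelihood test, with adjusted p-values of 0.00386 by the edgeR likelihood ratio test and 0.00886 by DESeq2. The combination's share of this pattern rests on 12 methylated reads of 926, and 185 of the 216 methylated reads of Vehicle came from 1 library. Those 12 lay at 7 positions in replicate 1 and 5 in replicate 2, with 1 at each position. They are counts per position and may come from fewer molecules.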

How the results depend on the processing

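edgeR's quasi-likelihood test called 0 of 34580 units in each of the 8 contrasts, and so did limma, the read minimums of 10 and 50, the minimum of 3 positions and the replicate block. The likelihood ratio test called 674 units for the combination against Vehicle, 331 for AG120 against Vehicle, 231 for AZA against Vehicle, 721 for the combination against AZA, 692 for the combination against AG120, 663 for the average AG120 effect, 429 for the average AZA effect and 353 for the interaction. DESeq2 called 824, 353, 184, 868, 843, 918, 565 and 450 in the same order. With positions read in all libraries, 12302 units could be fitted, and calls numbered 1 for the combination against Vehicle, 1 for AG120 against Vehicle and 4 for the average AG120 effect; none was in the 10 factors. Leaving out 1 library gave between 0 and 4 calls for the average AG120 effect, 4 of them without replicate 1 of AG120, and 0 elsewhere. Why the tools differ was not tested. Same-numbered libraries did not deviate together (correlations between -0.00893 and 0.0148), and the replicate block left 0 calls. With 2 libraries per group that largely read different positions, these correlations cannot show whether the numbers mark a shared animal or batch.

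For the factors' differences, 708 of 720 values with 1 library left out stayed within the spread between replicates and 101 changed sign. Positions read in all libraries left 4 units and 28 differences, of which 12 stayed within that spread and 16 moved beyond it, and 14 changed sign. The unweighted mean of positions with 10 reads in every library left 7 differences, all of the rest of Irf8, of which 3 moved beyond the spread and 6 changed sign. Units of the factors with no methylated read numbered 3 and 5 in the combination, 2 and 2 in AG120, 3 and 1 in AZA, and 0 and 2 in Vehicle. The 4 units left with positions read in all libraries were the rest of Irf8, Irf4 and Klf4 and the start-site end of Klf4. Outside these and the Irf4 start-site end, the part of differing positions in a difference was not tested.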

Other observations

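Beyond the 20 units, 11 further units of these genes had positions that at least 1 library read but fell under the minimum of 20 reads in every library, so values are given here for the libraries that had 20 or more reads, with no comparison. The downstream flank of Cebpa (chr7:35122929-35123928), which is separated from the gene by a far end without a read position, was at 100% in replicate 2 of the combination, 100% in replicate 2 of AG120, 99.5% in replicate 1 of AZA, and 100 and 100% in Vehicle. The high-coordinate end of Spi1 (chr2:91115260-91116759) was at 90.6% in replicate 1 of the combination, 99.8% in replicate 2 of AG120, and 100 and 99.3% in Vehicle. The downstream flank of Cebpb was at 97.0 and 94.2% in AZA and 100 and 66.5% in Vehicle. The upstream flank of Gfi1 (chr5:107726806-107727805) had no methylated read in the 4 libraries that read it deeply enough, 610 and 152 reads in AZA and 39 and 127 in Vehicle, which allows up to 0.492, 1.97, 7.69 and 2.36%.

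The upstream flanks of Cebpb and Irf4 scattered more. That of Cebpb was at 65.5% in replicate 1 of the combination, 64.6 and 34.6% in AG120, 83.6% in replicate 1 of AZA, and 0 (of 34 reads, up to 8.82%) and 63.9% in Vehicle. That of Irf4 was at 56.3% in replicate 1 of AG120, 75.0 and 26.0% in AZA, and 74.1% in replicate 2 of Vehicle. The downstream flank of Id2 was at 13.2% of 3953 reads in replicate 1 of AG120 and had no methylated read in Vehicle, of 825 and 66 reads, which allows up to 0.364 and 4.55%. The rest of Id2 was at 100% in replicate 2 of AZA (33 reads, counted over 11 positions). The upstream flank of Cebpa had no methylated read of 57, counted over 19 positions, in replicate 1 of AG120, which allows up to 5.26%. The high-coordinate flank of Cebpe had none of 26 in replicate 1 of the combination, which allows up to 11.5%. The far end of Irf8 had fewer than 20 reads in every library.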
